A study of Mus musculus with 30 samples.

Results

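Gene expression in the large intestine was compared with the mean of 12 tissues outside the gut, using the 2 arrays labelled large_intestine out of the 30 arrays of the series. The 12 tissues were bladder, bone, fat, skin and muscle, the organs liver, kidney, heart and lung, and eyes, brain cortex and cerebellum, with 2 arrays each and 24 in all. Small intestine and stomach, also with 2 arrays each, stayed outside that mean and were compared with the large intestine directly. Arrays were assigned by their sample labels alone. All tissues came from untreated male C57BL/6 mice, aged 28 weeks in the labels, although the study's methods give another. The methods state that replicates came from different animals, but the series description gives fat and bone a single replication, so it is not certain what the spread between their arrays covers. The arrays were Agilent oligonucleotide arrays read in both colours, with the RNA of the tissue in Cy3 and the same reference RNA in Cy5. Universal mouse reference RNA, itself pooled from cell lines, and RNA of embryonic stem cells (129ES in the labels, MC1 in the methods) made up that reference, and the dyes were never exchanged. Every level below is log2(Cy3/Cy5), the log2 ratio of tissue to reference at 1 probe, so 0 is equality with the reference and a difference of 1 is a 2-fold change of that ratio.

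The wall of the large intestine is lined by a single layer of columnar cells, absorptive colonocytes and mucus-secreting goblet cells, which are renewed from dividing cells in the crypts. The epithelium takes up salt and water, burns short-chain fatty acids made by bacteria, and keeps those bacteria at a distance with mucus, lectins and antibodies. Under it lie connective tissue, immune cells, enteric nerves and layers of smooth muscle, all of which contribute RNA to a sample of the whole organ. In such bulk samples a smaller number of cells of a type and less RNA per cell cannot be told apart.

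The probes of 5 genes are shown because the comparisons turn on them: a mucosal pentraxin, a membrane protein that was well above background on no array outside the gut, a mucus lectin, the receptor that carries IgA into the lumen, and a non-coding RNA of the Hoxa cluster. Each is an oligonucleotide of 60 bases read from the spot files and written 5′ to 3′. No base is in capitals, because no part of a probe is singled out.
Mptx1: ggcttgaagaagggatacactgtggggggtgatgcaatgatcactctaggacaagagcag
Tm4sf20: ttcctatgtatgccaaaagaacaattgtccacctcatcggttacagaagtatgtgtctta
Zg16: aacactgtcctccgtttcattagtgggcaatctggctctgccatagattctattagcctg
Pigr: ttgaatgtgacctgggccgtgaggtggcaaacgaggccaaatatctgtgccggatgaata
Hoxaas3: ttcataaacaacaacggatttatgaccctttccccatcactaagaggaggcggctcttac
The genes lie on mouse chromosomes 1 (Mptx1, Tm4sf20 and Pigr), 7 (Zg16) and 6 (Hoxaas3) in GRCm38.p6, and the bases of the probes are 38.3% to 51.7% G or C. The genome positions of the probes were not analysed here. Mptx1 has a close relative in the mouse genome, and signal from that relative cannot be told apart from its own.

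The 2 large intestine arrays differed from each other more than the arrays of any other tissue did by the median difference between replicates. The median SD between the large intestine replicates was 0.34 on the log2 scale, against 0.07 to 0.29 in the other 14 tissues. Across probes, Pearson r between the pair was 0.798, and fat was the 1 tissue with a lower value, 0.671. Replicate 1 correlated with the small intestine arrays at 0.884 and 0.895, above its value with replicate 2, whereas replicate 2 correlated with them at 0.676 and 0.712. Replicate 1 shared a slide and a scan day with small intestine replicate 2 and both stomach arrays. Replicate 2 was on another slide, with bone replicate 1 the other array on it from this series, and was scanned on another day. Tissue piece, slide and scan day therefore cannot be told apart as sources of the gap, and both arrays are given for each gene below. The 2 arrays were alike in brightness, with 60.2% and 58.9% of probes well above background in Cy3.

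The labels were set against defining genes of the organ. Of 10 markers of the large intestine, 4 could be measured under a gene symbol, among them Vil1, Pigr and Gpa33, and all 4 were higher than in the non-gut tissues. Of 7 markers of the small intestine, 5 could be measured. Among these, Ada and Alpi were above all non-gut arrays on both large intestine arrays, Lct was not called different from the non-gut mean, and Sis and Cps1 were high on replicate 1 only. Both arrays thus held gut markers, and replicate 1 alone also held high levels of some small intestine genes. Vil1 (difference −0.10 from small intestine, not called) and Pigr, where small intestine lay between the replicates, do not separate large from small intestine. None of the defining markers of pancreas (Cpa1, Pnlip, Ctrb1) or fat (Adipoq, Plin1, Cfd) could be measured under a symbol.

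Of 21025 probes tested, 2485 (11.8%) were called higher in the large intestine than in the mean of the 12 non-gut tissues and 2671 (12.7%) were called lower, at an adjusted p under 0.05 by limma and a log2 difference of at least 1. The difference was at least 2 for 1027 probes that were higher (4.88%) and for 359 that were lower (1.71%). This balance depended on the setting, with 1292 higher and 1231 lower without large intestine replicate 1, 1040 and 182 without replicate 2, and 1179 and 1203 with slide as a fixed block. The median difference over all probes was −0.10. The higher calls were 48.2% of all calls, and 31.1% when each array was centred on its median in place of loess (1633 higher and 3623 lower), a setting that moved the median difference to −0.18. A symbol was known for 5047 of the probes (24%), of which 432 were called higher and 691 lower, and 18.5% of these lie on chromosome 1, so the named genes are not a random draw of the genome. Members of the gene lists below could come only from these 5047 probes. Their counts of 432 and 691 are thus a closer background for the lists than the shares of all probes printed there.

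The higher calls were shared by the replicates more often than the lower calls. Both arrays exceeded the non-gut mean by 1 or more for 1628 of the 2485 probes called higher (65.5%), replicate 1 alone for 245 and replicate 2 alone for 612. Of the 2671 probes called lower, both arrays lay below that mean by 1 or more for 1127 (42.2%), replicate 1 alone for 103 and replicate 2 alone for 1438 (53.8%). Both arrays were above all 24 non-gut arrays at 722 probes (3.43%), 660 of them called higher (3.14% of all probes), and below all of them at 427 (2.03%), 329 of them called lower (1.56%). Called probes beyond all non-gut arrays became 1786 higher and 2620 lower when replicate 2 alone was used, and 912 and 284 with replicate 1 alone. With replicate 1 left out, limma called 3260 probes higher and 4125 lower, and with replicate 2 left out 2241 higher and 1316 lower, the lone array being assumed to vary like the others. Values within a scan day or slide are given as a description, since the calls were made with the same arrays. Replicate 1 exceeded the mean of muscle, skin and fat scanned on its day at 96.9% of the probes called higher, and replicate 2 exceeded the bone array of its slide at 90.2%. For the probes called lower, replicate 1 lay below the first of these at 89.6% and replicate 2 below the second at 92.4%.

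**Figure D1:**
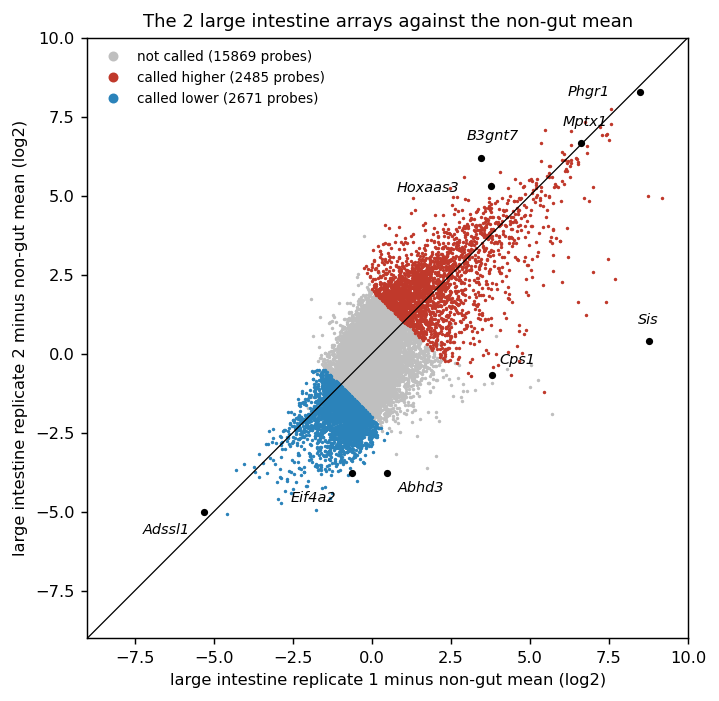
Log2 difference from the non-gut mean of each of 21025 probes on large intestine replicate 1 (x axis) and replicate 2 (y axis). Red points are the 2485 probes called higher, blue points the 2671 called lower, and the line marks equal values. Phgr1 and Mptx1 lie near the line, B3gnt7 and Hoxaas3 above it, and Sis, Cps1, Abhd3 and Eif4a2 far below it.

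The 20 named genes with the largest excess over the non-gut tissues were taken among those called higher with both arrays above all 24 non-gut arrays. The replicates lay within 1 of each other for 17 of the 20. All 20 kept their call under each of the 41 alternative settings in which they were tested. They were chosen on these same arrays, for the largest differences and with both large intestine arrays above all non-gut arrays. Kept calls were therefore likely in advance and add no separate support. Against the other gut organs 6 of the 20 were called higher than in small intestine and 12 than in stomach, 1 was called lower in each case, and the remaining 13 and 7 were not called.

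Phgr1, which encodes a short protein rich in proline, histidine and glycine made in gut epithelium, led the list in the ratio. Its log2 ratios were 8.73 and 8.53 on the large intestine arrays, and −0.14 to 1.97 with a median of 0.07 on the non-gut arrays, the highest being lung. The difference of 8.39 (SE 0.17, limma adjusted p = 8.51e-17) was a 335-fold change of the ratio. Only 8 of the 24 non-gut arrays were well above background, so this fold is not exact. Small intestine (8.10 and 8.75) and stomach (7.86 and 7.34) were also far above every non-gut array. In Cy3 alone, scaled between arrays, the excess of Phgr1 over the non-gut mean (10.32) was below those of Mptx1 (10.98), Lypd8 (10.75) and Zg16 (10.45).

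AA467197, a gene for a small mitochondrial protein of mucosal epithelia, stood at 8.05 and 7.56 against −1.44 to 4.14 outside the gut. Its highest non-gut tissue was the eyes, and its difference was 7.16 (SE 0.23, limma adjusted p = 3.46e-14). Both large intestine arrays were also above the pairs of small intestine (7.17 and 7.08) and stomach (6.50 and 6.52), although the difference of 0.68 from small intestine was not called.

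Mptx1, a mucosal member of the pentraxin family of pattern-binding proteins, was the gene among the leading 20 whose 2 large intestine values were closest. It read 6.68 and 6.72 in the large intestine and −0.17 to 0.65 on the non-gut arrays, a difference of 6.63 (SE 0.31, limma adjusted p = 7.47e-12), with 3 of the 24 non-gut arrays well above background. In small intestine the pair split, at 5.74 and 3.36, both below the large intestine, with a difference of 2.15 (limma adjusted p = 0.00184). In stomach it was at 0.07 and 0.21 and not well above background on either array, which made the Cy3 level in large intestine at least 3281-fold higher.

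Among genes that act on bacteria in the lumen, Lypd8, whose product coats the flagella of bacteria, was at 6.66 and 5.98. The non-gut arrays ran from −0.16 to 5.82 with a median of 0.07, the high value being 1 of the 2 fat arrays. The difference was 5.91 (SE 0.72, limma adjusted p = 2.44e-06), with 7 of the 24 non-gut arrays well above background. Both large intestine arrays were above that fat array, replicate 2 by less than the spread between the replicates. Zg16, a lectin of goblet cell mucus that binds Gram-positive bacteria, read 4.70 and 3.98 against −0.17 to 1.32 outside the gut (difference 4.23, SE 0.24, limma adjusted p = 1.19e-10). For Zg16 too, 7 of the 24 non-gut arrays were well above background. In this ratio small intestine (3.85 and 4.79) and stomach (4.22 and 3.54) overlapped the large intestine, whereas the Cy3 level of Zg16 alone, scaled between arrays, was 17.89 in large intestine, 18.13 in small intestine and 12.36 in stomach on the log2 scale.

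Tm4sf20, a membrane protein with 4 predicted spans, was high in both parts of the intestine and well above background on neither stomach array. Its values were 5.50 and 5.05 in the large intestine, 5.39 and 5.95 in the small intestine, and 0.06 and 0.02 in the stomach. On the 24 non-gut arrays it was never well above background (−0.24 to 0.50), so that the Cy3 level in large intestine was at least 84.3-fold higher than there (limma adjusted p of the ratio 4.65e-16).

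Vil1 encodes villin, which bundles actin in the microvilli of the brush border. It stood at 5.61 and 5.12 in the large intestine against −0.95 to 5.07 outside the gut, where kidney, another organ with a brush border, gave the highest value. Its difference from the non-gut mean was 5.09 (SE 0.27, limma adjusted p = 4.10e-11), with the lower large intestine array just above the higher kidney array. Cnnm4, which moves magnesium out across the basolateral membrane, was at 4.81 and 4.73 against −0.74 to 2.82, and was higher by 4.35 (SE 0.19, limma adjusted p = 1.70e-12). Chp2, a cofactor of sodium and proton exchangers, was at 6.00 and 6.27 with skin its highest non-gut tissue, and was higher by 4.17 (SE 0.22, limma adjusted p = 4.64e-11).

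Hoxaas3, an antisense RNA of the Hoxa cluster, and B3gnt7, an enzyme that extends glycan chains, had the highest values among the leading genes for the smaller of their differences from small intestine and stomach. Hoxaas3 read 3.50 and 5.05 in the large intestine, 0.50 and 0.49 in the small intestine, 0.21 and −0.03 in the stomach, and −1.21 to 1.06 elsewhere. Replicate 2 was the higher by 1.55, and both arrays were above all others of the series. Its difference from the non-gut mean was 4.53 (SE 0.22, limma adjusted p = 1.16e-11). B3gnt7 was at 0.73 and 3.47 against −3.44 to −1.53 outside the gut, a difference of 4.82 (SE 0.39, limma adjusted p = 1.33e-08). The replicates of B3gnt7 were far apart, yet the lower of them exceeded small intestine (−0.37 and −0.86) and stomach (−1.41 and −1.36).

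The other leading genes were Fam83e, Bnip5, 2200002D01Rik, Ly6m, 2210009P08Rik, Inava, Ifi27l2b, 1700066B19Rik and Rep15, with differences between 4.16 and 6.21. Ly6m, of the Ly6 family of surface proteins, was at 5.32 and 5.81 with a highest non-gut array of 3.15 in skin. Inava, a regulator of innate immune signalling and of the intestinal barrier, was at 2.74 and 3.61 against −2.88 to 1.63, with bladder the highest. Ifi27l2b, an interferon-inducible gene, was at 4.85 and 4.62, just above a liver array at 4.57. 2210009P08Rik was at 5.77 and 3.71 and was lower than in small intestine and in stomach. Among probes without a symbol, Z00058552-1 had the largest difference, 7.67, with 7.60 and 7.78 in the large intestine and −0.16 to 0.25 outside the gut. Only 2 of the 24 non-gut arrays were well above background for it.

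**Figure D2:**
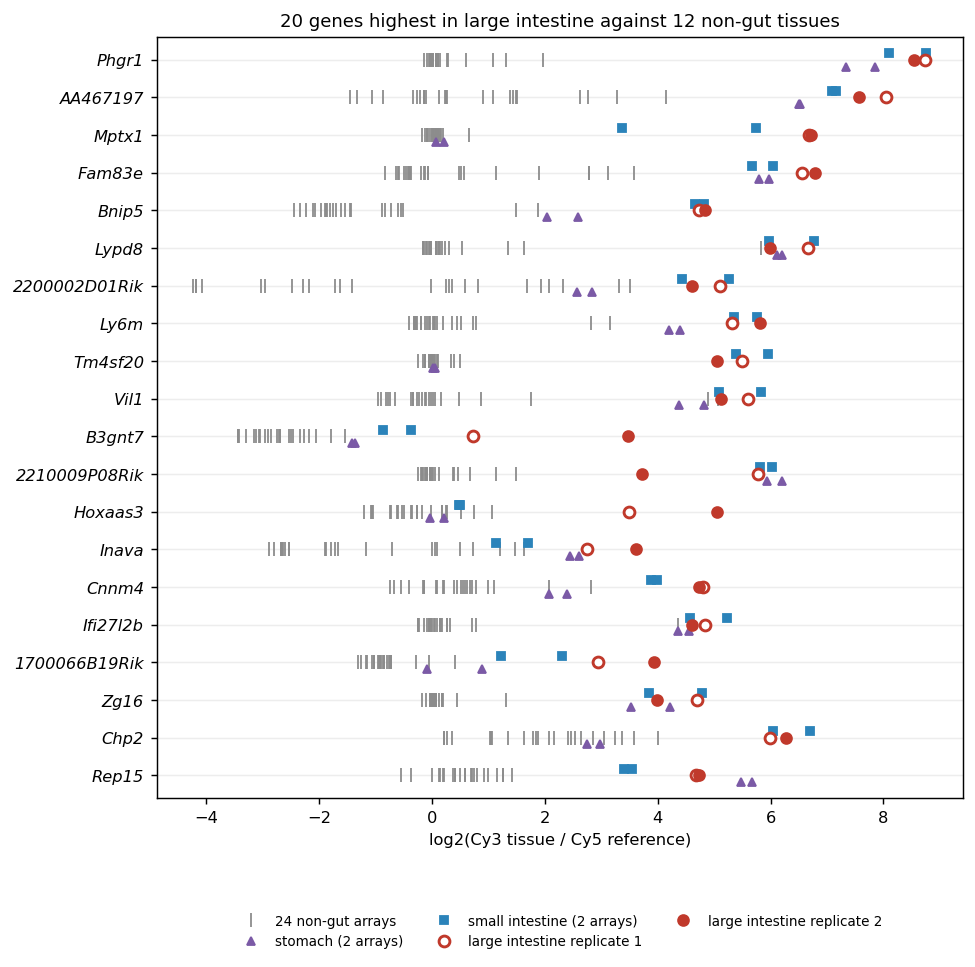
Log2(Cy3/Cy5) on the x axis for the 20 leading genes, ordered by their difference from the non-gut mean. Grey ticks are the 24 non-gut arrays, blue squares small intestine, purple triangles stomach, and open and filled red circles large intestine replicates 1 and 2. Both circles lie right of all grey ticks in every line, while blue squares reach or pass them in most lines.

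At the brightest of these spots the reference channel was higher on the large intestine arrays as well. Over the 20 genes the Cy3 level, scaled between arrays, exceeded the non-gut mean by a median of 5.91, and the Cy5 level did so by a median of 1.52, although Cy5 held the same reference RNA throughout. At 11 of the 20 the Cy5 excess was 1 or more, against 1.74% of all probes where Cy5 differed by 1 or more in either direction. The excess in the ratio was accordingly smaller than that in Cy3 at those spots. For Zg16 the Cy3 excess was 10.45 and the Cy5 excess 7.75, and for Mptx1 they were 10.98 and 5.89. Hoxaas3, which was less bright, had 3.92 in Cy3 and 0.12 in Cy5. The cause of the Cy5 excess was not tested.

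**Figure D3:**
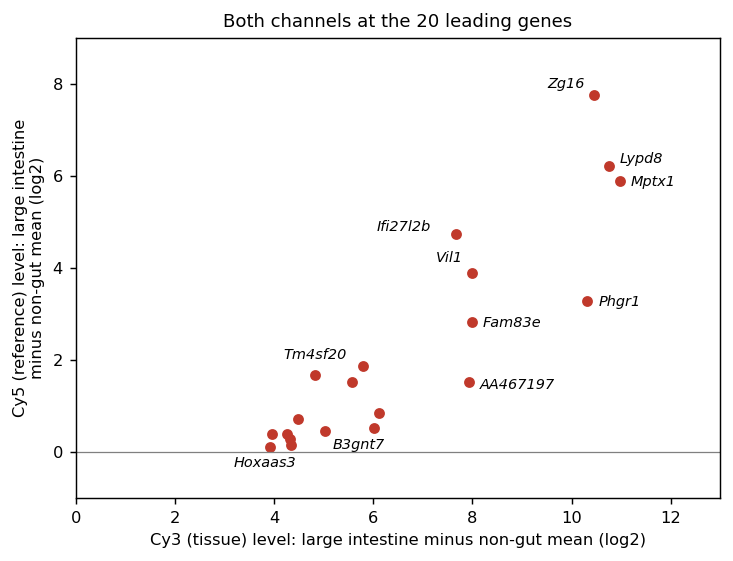
Log2 level in large intestine minus the non-gut mean in Cy3, the tissue channel (x axis), and in Cy5, the reference channel (y axis), for the 20 leading genes. Points with a Cy3 excess near 4 lie close to the line of no Cy5 excess, and Zg16, Lypd8 and Mptx1, with a Cy3 excess above 10, lie at a Cy5 excess of 5.89 to 7.75, while Phgr1, at 10.32 in Cy3, lies at 3.28.

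Genes of mucus and mucosal defence were higher in the large intestine as a group, with 8 of 11 measured members called higher and none lower, against 11.8% of all probes. The median difference of the 11 was 1.58, beside −0.10 over all probes. From small intestine their median difference was −0.05 and from stomach 0.17, so the excess was shared with these gut organs. Beside Mptx1, Lypd8 and Zg16, the group held Pigr, the receptor that carries IgA across the epithelium, at 3.83 and 5.06. Its non-gut arrays ran from −0.21 to 3.55 in liver, which secretes IgA into bile in rodents, and its difference was 3.98 (SE 0.25, limma adjusted p = 5.11e-10). Stomach, at 0.48 and 0.51, was far below for Pigr, whereas small intestine (4.69 and 4.72) lay between the replicates. Qsox1, which forms disulphide bonds in secreted proteins, rose by 2.00, Ccl20, a chemokine made by epithelium over lymphoid follicles, by 1.58, and Cd55, which shields cells from complement, by 1.52. Slpi, Erp27 and Fcamr were not called, with differences of 0.41, 0.40 and −0.29. With replicate 1 left out 5 members were called higher, as Ccl20, Cd55 and Cd55b lost their calls.

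Enzymes that build mucin glycans and their sugar donors gave 6 of 11 members higher and none lower, beside 11.8% and 12.7% of all probes, with a median difference of 1.39. The median difference of these members was 0.28 from small intestine and 0.53 from stomach. Gfus and Fcsk, which supply GDP-fucose by the new and the salvage route, were higher by 2.24 and 1.39, and on replicate 2 the values were 2.08 and 2.05, above 0.69 and 0.36 on replicate 1. Gal3st2, a sulphotransferase of galactose, was well above background on no non-gut array, with 2.49 and 1.55 in the large intestine, a Cy3 level at least 4.62-fold higher. Mgat4a, a branching enzyme of N-glycans, was higher by 2.66 than outside the gut. The count was 6 with either array left out, but Fcsk lost its call without replicate 2.

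Genes of epithelial structure were higher for 10 of 19 members, with 1 lower, beside 11.8% and 12.7% of all probes, and a median difference of 1.13. Against small intestine and stomach the median difference was 0.20 and 0.17. Plet1, a surface protein of epithelia, was at 6.10 and 5.83 but within the non-gut range of −2.15 to 6.73, since the eyes were as high (difference 4.25, SE 0.62, limma adjusted p = 1.70e-05). Gpa33, the A33 antigen of intestinal epithelium, was at 2.59 and 3.51, above the highest non-gut array of 1.02 in bladder (difference 3.64, limma adjusted p = 2.51e-10). Lad1, part of the anchorage to the basement membrane, was higher by 3.75, and Rab17, which sorts cargo in polarised cells, by 3.69. Add3, a protein that caps actin, was the member called lower, on replicate 2 only (1.65 and −1.12).

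Among carriers and receptors of the colon surface, 3 of 9 measured members were higher, beside 11.8% of all probes, and none lower, with a median difference of 0.48. With scan day as a block 1 was called higher. Adra2a, an adrenergic receptor that favours salt uptake, was at 5.16 and 5.52 against −0.60 to 4.46 outside the gut (difference 3.32, SE 0.40, limma adjusted p = 1.95e-06). Slc9a2, a sodium and proton exchanger, was at 6.98 and 6.69, just above a muscle array at 6.35, and was higher by 3.22 (limma adjusted p = 5.95e-04), a call that was lost with scan day as a block. The sodium pump subunit Atp1b1 was higher by 1.40, below kidney, and lost its call in 5 settings, among them slide or scan day as a block and the fit without replicate 1. Slc26a3, Car1 and Aqp8, the best known genes of this group, could not be measured under a symbol.

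Regulators of gut identity and renewal were higher for 8 of 18 members and lower for 1, beside 11.8% and 12.7% of all probes, with a median difference of 0.71. Tfcp2l1, a transcription factor of epithelial ducts, was at 2.61 and 1.73, with kidney its highest non-gut tissue at 2.61. Elf3, an epithelial Ets factor, and Ihh, the hedgehog ligand of differentiated enterocytes, were above all non-gut arrays, with differences of 3.43 and 3.29. Msi1, an RNA-binding protein of progenitor cells, was higher by 2.20, and the Wnt receptor Fzd5 by 1.90 with 1.64 and 1.67 on the arrays. Sox17, an endothelial and endodermal factor, was lower by 1.37 (limma log2 difference −1.37, adjusted p = 0.0149), a call that was lost with either large intestine array left out. These 8 higher calls were 9 without replicate 1 and 7 without replicate 2.

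Enzymes of short-chain fatty acid use and mitochondrial acyl metabolism moved both ways, with 5 of 18 members higher and 5 lower, beside 11.8% and 12.7% of all probes, and a median difference of −0.31. Acsm3, which activates medium-chain acids including butyrate, was at 5.74 and 5.05, and Acads, which oxidises butyryl-CoA, at 2.55 and 3.29. Their differences from the non-gut mean were 3.03 (limma adjusted p = 3.40e-08) and 2.36 (limma adjusted p = 2.69e-07), and kidney for Acsm3 and heart for Acads were the highest non-gut tissues. Acads was also higher than in small intestine by 1.69 and than in stomach by 1.77. Acadsb, Acadm, Mmut and Acat1 were lower, with differences of −1.91 to −1.07, and replicate 2 was the lower array at each. The remaining one, Acot12, was well above background on neither large intestine array, a Cy3 level at least 2.14-fold lower than the non-gut mean, but 8 of the 24 non-gut arrays were themselves above background, the non-gut median ratio was 0.09, and the call was lost under median centring and with array weights by tissue. Without replicate 2 the lower calls fell to 2.

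Subunits of the respiratory chain showed the same dependence on 1 array. Of 54 members 7 were lower and 1, Ndufab1, was higher, with a median difference of −0.28, and heart was the highest non-gut tissue at 51. The lower share was close to the 12.7% of all probes called lower. At all 7 lower members replicate 1 exceeded replicate 2, as at Ndufs1 (0.41 and −1.80) and Atp5pb (0.45 and −2.34). The lower calls numbered 13 without replicate 1 and 0 without replicate 2.

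Genes of cell division were higher for 17 of 58 members and lower for 1, beside 11.8% and 12.7% of all probes, with a median difference of 0.71. Birc5 (survivin), a spindle protein and inhibitor of cell death, was at −1.70 and −1.98 against a non-gut median of −4.49, and Aurkb, its kinase partner, at −2.43 and −2.50 against −4.31. The differences were 2.20 (SE 0.21, limma adjusted p = 1.12e-07) and 1.59 (SE 0.25, limma adjusted p = 3.76e-05). The call of Aurkb was lost with slide or scan day as a fixed block and with array weights by tissue. Bone, which holds marrow, was the highest non-gut tissue at 50 of the 58, and for 15 of the 17 called members a non-gut array was above both large intestine arrays. None of the 58 was called different from small intestine, where 5.04% of all probes were higher and 6.33% lower. The count of higher calls was 15 and 20 with either large intestine array left out, 8 under median centring, 4 with array weights by tissue, and 26 without fat and bone, a setting added after the data were seen, and with slide as a block 6 were higher and 7 lower.

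**Figure D4:**
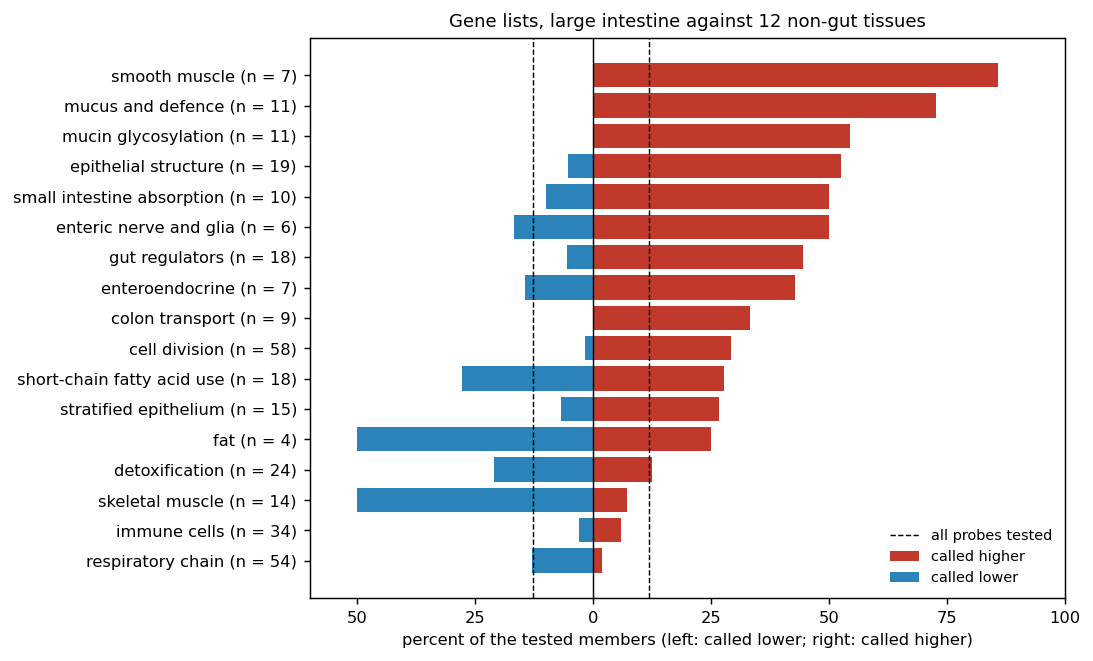
Percent of the tested members of each gene list called higher (red, right) or lower (blue, left) in the large intestine than in the non-gut mean, for lists with at least 4 tested members, with n beside the name. Dashed lines mark 11.8% and 12.7% of all probes tested. Smooth muscle, mucus and mucin glycosylation reach furthest right, and fat and skeletal muscle furthest left.

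Cells of the wall other than epithelium were read from their own lists, whose counts stand beside 11.8% of all probes called higher and 12.7% lower. Smooth muscle genes were higher for 6 of 7 members, none lower, with a median difference of 1.53. Csrp1, a smooth muscle LIM protein, was at 3.49 and 4.61 against −3.04 to 5.05, with bladder the highest (difference 3.47, SE 0.34, limma adjusted p = 1.49e-07). Lmod1 and Des, of the contractile filaments, were higher by 1.91 and 1.53. Of 6 genes of enteric nerve and glia 3 were higher and 1 lower, and 1 and 0 under median centring or with array weights by tissue. Scg2, a granule protein of neurons and endocrine cells, was at 6.42 and 3.63 against a non-gut median of −0.04, and was higher by 3.03.

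Enteroendocrine genes were called higher at 3 of 7, with Resp18 at 4.13 and 4.21 (difference 2.55, limma adjusted p = 4.85e-10). The secretin receptor Sctr was their 1 lower member, a call lost in 6 alternative settings, among them processed signals, median centring and the fit without replicate 2. Immune cell genes gave 2 higher and 1 lower of 34, a share below that of all probes, with a median difference of −0.06. Rgs1, a signalling regulator of activated lymphocytes, was at 2.54 and 1.03 and higher by 3.30, and Fcmr, the IgM receptor of B cells, at 2.44 and 3.43 and higher by 2.24.

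Lists of tissues that could lie next to the sample were also measured, again beside 11.8% of all probes called higher and 12.7% lower. Skeletal muscle genes were lower at 7 of 14 and higher at 1, with a median difference of −1.07, and 6 of them were well above background on neither large intestine array. With array weights by tissue 1 was lower and none higher, and with slide as a block or either large intestine array left out 5 were lower. The member called higher was Tnni1, troponin I of slow muscle, at 3.19 and 4.62 in the large intestine, against −0.35 and −0.15 in small intestine and −0.13 and −0.99 in stomach. Among fat genes 1 of 4 was higher and 2 lower, and the lower calls were 1 with slide or scan day as a block and 0 with array weights by tissue. Genes of stratified epithelium were higher at 4 of 15 and lower at 1, with 8 not well above background on either large intestine array. The higher calls in stratified epithelium were 2 without replicate 1 or under median centring and 1 with array weights. The 2 pancreas genes measured, Zg16 and Aqp12, were both higher, Aqp12 not under median centring or without replicate 2, and Zg16 belongs to goblet cells as well. Their part in the results was not tested.

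Detoxification genes gave 3 higher and 5 lower of 24, with a median difference of −0.19, beside 11.8% and 12.7% of all probes. Without replicate 1 they were 4 and 9, and without replicate 2 they were 5 and 4. Abcb1a, the drug efflux pump of the luminal membrane, was at 4.14 and 2.33 against −0.36 to 2.01 (difference 2.46, limma adjusted p = 6.20e-07). The aldehyde oxidases Aox3 and Aox1, which are rich in liver, were lower, with differences of −3.28 (limma adjusted p = 7.92e-10) and −2.89 (limma adjusted p = 6.83e-08).

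Muscle was the highest tissue for Adssl1, Acyp2 and Rxrg, liver for Aox3 and Acsl1, and brain cortex for Rbfox1 and Ildr2, all among the 10 named genes furthest below the non-gut mean. Adssl1, the muscle form of an enzyme of the purine nucleotide cycle, was at −3.53 and −3.20 against −1.53 to 5.53, with muscle the highest. Its difference was −5.16 (SE 0.16, limma adjusted p = 2.54e-14), and small intestine, at −3.52 and −3.46, lay between the large intestine replicates. Rbfox1, a splicing factor of neurons and muscle, read 1.77 and 0.73 against a non-gut median of 6.20, a difference of −3.40 (SE 0.34, limma adjusted p = 2.13e-07), and its call was lost with array weights by tissue.

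Acsl1, which activates long-chain fatty acids, was at 0.17 and −1.02, below all 24 non-gut arrays (0.36 to 5.31), and was lower by 3.14 (limma log2 difference −3.14, adjusted p = 1.96e-09). Prxl2a, a peroxiredoxin-like protein, was at 0.47 and −0.87 against 1.29 to 4.74. Of the 10 genes, which also held Iftap, 5 were below all non-gut arrays on both large intestine arrays.

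The 10 called genes with the widest gap between the large intestine arrays were all higher on replicate 1, as were 64.5% of the 5315 probes whose replicates differed by 1 or more, and at all 10 replicate 1 was the nearer to small intestine. Sis, the sucrase-isomaltase of the small intestinal brush border, was at 7.91 on replicate 1 and −0.46 on replicate 2, with 9.02 and 9.51 in small intestine and −1.25 to −0.15 outside the gut. Its difference of 4.57 (SE 1.04, limma adjusted p = 0.00131) was 8.75 on replicate 1 alone and 0.39 on replicate 2 alone. Sis was well above background on 1 of the 24 non-gut arrays and 1 of the 2 large intestine arrays, so these differences are taken largely against background. Cps1, the first enzyme of the urea cycle, was at 4.34 and −0.14, well above background on 1 of the 2 arrays. Its difference of 1.57 turned to −0.67 on replicate 2 alone. Liver, at 9.06 and 8.87, was its highest non-gut tissue, and the non-gut median was −0.26, below replicate 2. 2010106E10Rik went from 3.55 to 0.01 and Abhd3, a phospholipase, from 3.81 to −0.46. The others included general genes that were low on replicate 2. Eif4a2, a helicase of translation initiation, was at 0.21 and −2.96 against a non-gut range of −0.06 to 2.06, and Cct4, a chaperonin subunit, at −1.72 and −4.57 against −2.32 to −1.01. Paip2 and Arfgef1 had replicate 2 below every non-gut array as well, and Iftap had both arrays below all of them.

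Against small intestine, 1060 probes were higher in the large intestine (5.04%) and 1330 lower (6.33%). The balance turned to 738 higher and 670 lower with slide as a fixed block, to 928 and 789 with scan day as a block and to 582 and 547 without large intestine replicate 2. Of the 1330 lower probes, replicate 1 was within 1 of the small intestine mean at 724 (54.4%) and replicate 2 at 30 (2.26%). Replicate 1 was the higher of the pair at 1206 of them (90.7%, against 52.3% of all probes), and replicate 2 was the higher at 883 of the 1060 higher probes (83.3%). Without replicate 1 the calls numbered 5748 and without replicate 2 they numbered 1129. With only the 4 arrays of both organs in the fit limma called 0 probes, the lowest adjusted p being 0.0584, with 2151 probes at an unadjusted p under 0.05, so that the calls rest on the spread pooled over the 15 tissues.

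Among named genes Plet1 had the largest excess over small intestine in the ratio, with 6.10 and 5.83 against 0.65 and 0.08, a difference of 5.61 (SE 0.84, limma adjusted p = 1.38e-04). In Cy3 alone, on the log2 scale, Mptx1 had a wider gap (18.14 in large and 11.24 in small intestine) than Plet1 (14.67 and 8.94). Stomach, at 5.41 and 5.55, was close to the large intestine for Plet1, and the difference from it of 0.49 was not called. Tnni1 followed with a difference of 4.16, then Hoxaas3 (3.78, SE 0.30, limma adjusted p = 5.65e-08) and Foxd2os, an antisense RNA next to Foxd2, which was at 1.70 and 2.12 against −1.83 and −1.55. Foxd2os was also above every stomach and non-gut array. C2cd4b, AI854703, 2610528A11Rik and Cbr2 completed the leading 8 in this direction, with differences of 2.86 to 3.47. Cbr2, a carbonyl reductase rich in lung, was not called against the non-gut mean, at 0.03 and 1.83. From the lists, Tfcp2l1 (2.71), B3gnt7 (2.72), Acsm3 (2.60), Csrp1 (2.51), Ramp1 (1.99) and Qsox1 (1.77) were higher than in small intestine too.

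Of the 10 measured genes of small intestinal absorption 5 were lower than in small intestine and none higher, beside 6.33% and 5.04% of all probes. Against the non-gut mean 5 of these genes were higher and 1 lower, beside 11.8% and 12.7% of all probes. Their median difference from the non-gut mean was 1.38 on replicate 1 and 0.17 on replicate 2. Lct, the lactase of the brush border, was at 0.64 and 0.83, far from 4.61 and 5.47 in small intestine (difference −4.30, SE 0.48, limma adjusted p = 5.44e-06), and here the replicates were alike. In Cy3 alone, on the log2 scale, Lct was at 7.81 in large and 18.77 in small intestine, a wider gap than in the ratio. Outside that list, Acot12, an acetyl-CoA hydrolase, was well above background on neither large intestine array, at 0.06 and 0.00 against 5.17 and 5.87, a Cy3 level at least 47.6-fold lower. Ada, adenosine deaminase, was at 2.08 and 1.36, below small intestine (5.15 and 5.48) but above all non-gut arrays (−2.98 to −0.24). Alpi, the intestinal alkaline phosphatase, was at 3.47 and 3.03, a Cy3 level at least 16.7-fold higher than on the non-gut arrays, none of which was well above background, and its ratio was not called against small intestine (difference −0.79, limma adjusted p = 0.0780), although the Cy3 level was 10.40 in large and 14.13 in small intestine on the log2 scale. Among named genes Sis (difference −5.54), Cps1 (−4.73), Prxl2a (−4.65), Hnf4aos (−4.16), Smlr1 (−4.07) and Abhd3 (−3.71) also led those that were lower than in small intestine, and Smlr1 (4.07 and −0.12) shared the split of Sis.

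**Figure D5:**
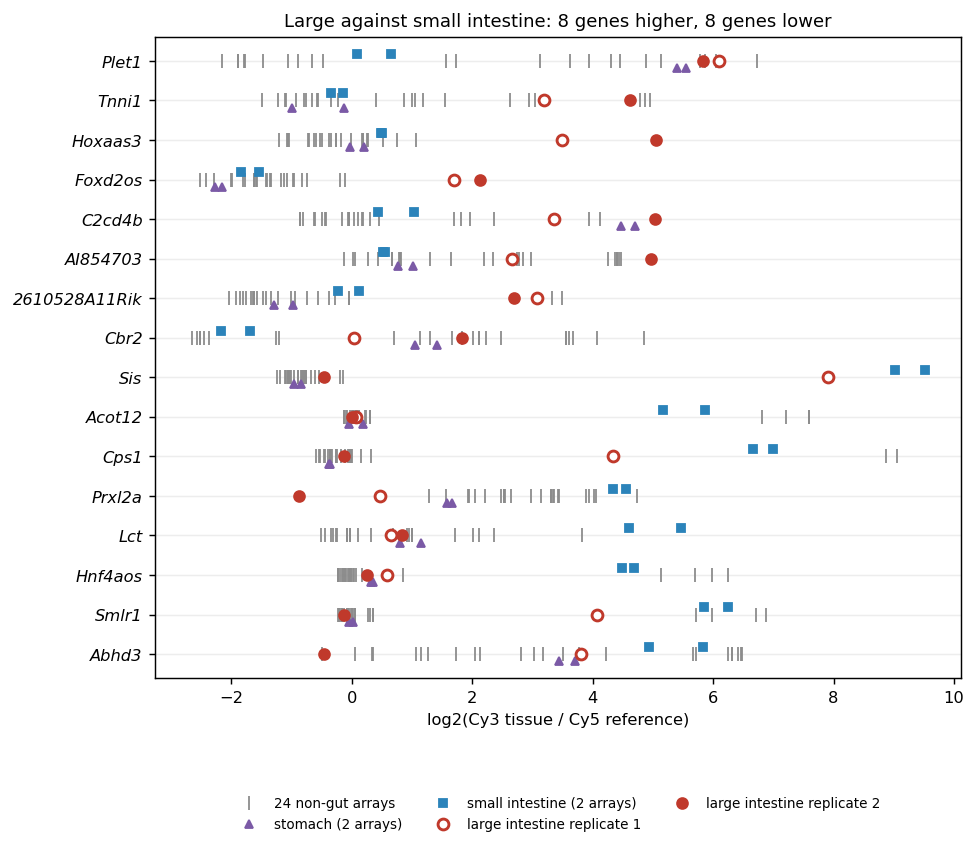
Log2(Cy3/Cy5) on the x axis for the 8 genes most in excess over small intestine (Plet1 to Cbr2) and the 8 most below it (Sis to Abhd3), with grey ticks for the 24 non-gut arrays, blue squares for small intestine, purple triangles for stomach, and open and filled red circles for large intestine replicates 1 and 2. At Lct, Acot12 and Hnf4aos both circles lie together at the left. At Sis, Cps1, Smlr1 and Abhd3 the filled circle lies at the left, and the open one left of the squares but nearer to them than the filled one.

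Against stomach, 1445 probes were higher (6.87%) and 2096 lower (9.97%), and 750 were called with only the 4 arrays of both organs in the fit. The balance turned to 1468 higher and 1289 lower with slide as a fixed block, to 1345 and 1302 with scan day as a block and to 1199 and 1109 without large intestine replicate 2, and was 711 and 2085 under median centring. Mptx1, Tm4sf20 and Sis were well above background on neither stomach array, so that only bounds of at least 3281-fold, 79.8-fold and, resting on replicate 1, 24.6-fold higher Cy3 can be given. Among genes with a symbol that were measured on both sides Tnni1 (difference 4.47), Tmem37 (4.29) and Hoxaas3 (4.19) led those that were higher in the ratio. In Cy3 alone, on the log2 scale, Zg16 had a wider gap (17.89 in large intestine and 12.36 in stomach) than Tnni1 (13.34 and 8.40). The median difference of the 54 respiratory chain genes from stomach was −0.53, with 12 lower and none higher. Genes of stratified epithelium, which lines the forestomach of the mouse, were lower at 13 of 15 and higher at none, with a median difference of −3.72. Serpinb3c, an epithelial protease inhibitor, was at 0.05 and −0.32 in the large intestine and 6.50 and 6.53 in the stomach, a Cy3 level at least 98.8-fold lower. Krt10, a keratin of cornifying epithelium, was at −0.29 and −0.98 against 4.64 and 4.66. Fam25c had the most negative difference, −7.44 (SE 0.40, limma adjusted p = 6.10e-11), with −3.51 and −3.16 against 4.04 and 4.17, and the secretin receptor Sctr fell by 6.20 on the log2 scale.

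The letters CAATAAA, which are bound by CDX2, a master regulator of intestinal identity, were counted on either strand of RefSeq promoters in GRCm38.p6, from 250 bases before the start to 50 after it. Of 328 called higher genes with a promoter, 14 held the letters (4.27%), against 3.57% of 3786 genes tested and 2.09% of 527 called lower. Among the 95 genes higher by 2 or more, 1 held them (1.05%), and among the 12 of the leading 20 with a promoter in the table none did. Over all 27025 genes of the table the share was 5.33%.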

How the data were processed

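RNA of 15 tissues was hybridised to 30 two-colour Agilent arrays with 43451 spots each. The deposited spot files held mean and background intensity in both channels from Agilent Feature Extraction 9.5.1.1, with flags (other values) for spots well above background, saturated or outlying. A deposited table of 25030 probes held log10 values, found by comparison with the spot files to be log10 of a Cy3 level, and fixed which probes were used. Background was corrected by normexp (offset 50), ratios were normalised by loess within arrays, and spots of a probe were averaged as log2(Cy3/Cy5), without control spots and 475 outlier spots. Probes whose Cy3 was well above background in both replicates of 1 or more tissues were kept, 21025 in all (84.0%). The depth of an array is not a count, and the number of arrays limits precision.

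A linear model with 1 coefficient for each tissue was fitted over all 30 arrays (limma 3.58.1, R 4.3.3, 15 residual degrees of freedom), with moderated tests and Benjamini-Hochberg adjustment over all probes tested. A probe was called at an adjusted p under 0.05 and a log2 difference of at least 1. Bounds given as at least N-fold came from Cy3 levels scaled between arrays (Aquantile) where a group was not well above background, and are open to dye bias, as no dyes were exchanged. The p-values measure the spread between arrays, pooled for each probe over the 15 tissues. The large intestine replicates had the widest median SD, 0.34 against 0.07 to 0.29 in the other tissues. SEs of genes whose large intestine replicates split may therefore be too small. With array weights by tissue, which let that spread differ between tissues, the calls against the non-gut tissues were 2491 in place of 5156. The scripts were tested on simulated data. No column of other samples was present.

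Symbols came from the probe lists in the study's supplement, which name 5619 probes, and were updated with the RefSeq table of GRCm38.p6 (3480 current, 1664 synonyms, 475 not found). Named genes were the 20 called higher with the largest difference and both arrays above all 24 non-gut arrays, the 10 called lower with the most negative difference and both arrays below the non-gut median, the 10 with the widest replicate gap, the 8 and 6 in each direction against small intestine and stomach whose arrays did not overlap, and genes of 18 lists. The comparison, lists and named genes were chosen with earlier results of these data known. Replicate numbers are shared by tissues but mark nothing else in the labels, so no block was used.

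Alternatives were the scanner software's processed signals, median centring, Cy3 alone, the deposited table, no filter and a filter of at least 5 tissues, slide and scan day as blocks, the replicate number as a block, array weights by tissue, only the arrays compared, all probes of the array, a trended robust prior, and each array left out. Some results are not reported here.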

Additional observations from a re-analysis of the deposited data

Results flagged for a closer look

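The array also held probes that are not in the deposited value table. Of 13619 such probes past the same filter, 1264 were called higher in the large intestine than in the non-gut mean (9.28%) and 998 lower (7.33%), by the same limma test, against 11.8% called higher inside the table. They entered no comparison above.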

How the results depend on the processing

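Calls against the non-gut tissues numbered 5156, and 7932 with processed signals, 7852 with the deposited table, 2491 with array weights and 517 where a probe had to pass against each of the 12 tissues. The 1027 probes higher by 2 or more became 1636, 1599 and, under median centring, 625. Calls against small intestine numbered 2390, and 1332 under median centring, 1408 with slide as a fixed block, 662 with array weights and 0 with only the arrays compared. Calls against stomach numbered 3541, and 1452 and 750 with the last 2 of these settings. The correlation of 0.798 between large intestine replicates was 0.920 for Cy3 alone and 0.935 in the deposited table. With 1 array left out, the counts ran from 3557 to 7385 (non-gut), 1011 to 1292 (higher by 2 or more), 987 to 4406 (beyond all non-gut arrays), 1129 to 5748 (small intestine) and 2308 to 6522 (stomach), the highest each time without large intestine replicate 1. A further fit without small intestine replicate 1 gave 1291 calls against small intestine. With the replicate number as a block the 5 counts were 5161, 1028, 989, 2460 and 3601. The differences between replicates 1 and 2 of the other tissues correlated with that of large intestine at −0.12 to 0.33 (median 0.11), so the numbers were not taken as pairs. Without fat and bone, added after the data were seen, the first 3 were 5463, 1059 and 1223.

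Over 156 named genes and 6386 values, 6102 kept direction and call, 275 lost the call, 63 of them with array weights, and 9 turned. Those were Myl1 with processed signals (0.067), Ube2c (−0.044), Kif23 (−0.13) and Acss1 (−0.36) with slide as a fixed block, and 5 genes with 1 array left out. Over all such fits Cps1 ran from −0.67 to 3.81 and 2010106E10Rik from −0.036 to 3.51, both turning without large intestine replicate 1, and Add3 from −2.64 to 0.13, Abhd3 from −3.78 to 0.48 and Arfgef1 from −2.84 to 0.011, all turning without replicate 2. The cause of these changes was not tested. Probes near background have only a bound, and 2 arrays that differ this much limit every count above.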
